A study of Gallus gallus with 8 samples.

Results

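Primary chicken fibroblasts and HD3 cells, a chicken erythroblast line, are 2 cultured cell types of different lineage, and their maps of open chromatin are set against each other here. All 29444 peaks of the 2 maps were taken, of 53397 peaks in the 4 maps of the series. A peak was taken as shared where it overlapped a peak of the other cell type by at least 1 bp. This gave 4 classes: 12728 fibroblast peaks without HD3, 4953 fibroblast peaks shared with HD3, 4961 HD3 peaks shared with fibroblasts and 6802 HD3 peaks without fibroblasts. Shared sites are counted from each side, because a peak of one cell type can lie over several of the other.

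Both cell types were labelled wild type and were grown in the same medium, DMEM with 10% fetal bovine serum and 2% chicken serum. ATAC-seq was run on nuclei of 150000 cells for each of 2 samples a cell type. It exposes chromatin to the Tn5 transposase, which cuts open DNA and leaves sequencing adapters at the cuts. The fibroblasts are primary cells and HD3 is a single line, so a difference between them is one of these cultures. Red blood cells of day 10 embryos and of hens aged 28 to 38 weeks complete the series and serve below as 2 further readouts, with 12558 and 11395 peaks. The sex of the cultured cells is not given in the labels.

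Fibroblasts build and remodel connective tissue. Erythroblasts are the nucleated precursors of red blood cells, and HD3 is held at that stage by the oncogenes of an avian erythroblastosis virus. Open sites that cell types of distant lineages have in common are, in general, rich in promoters of widely used genes and in insulator sites, whereas sites of one lineage are more often distal enhancers. The chicken genome has a few large chromosomes, many gene-dense microchromosomes and a ZW pair of sex chromosomes. Peaks were not assigned to genes here, so the cell types could not be checked against marker genes and the sites are described by position.

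Each cell type had 1 peak list, without replicate error and with unknown read depth. No test between the cell types was therefore possible, and the 95% intervals below cover counting error over peaks only and are too narrow, since neighbouring peaks are not independent. The lists also passed through unequal removal, since 6.70% of the running peak numbers were missing from the fibroblast list and 40.3% from the HD3 list. Positions are those of the deposited lists on GRCg6a, the build in the submitters' processing notes.

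The shared sites were mostly single, well-aligned sites. Of 5012 overlapping pairs, 4797 joined exactly 1 fibroblast peak to exactly 1 HD3 peak. In these one-to-one pairs the summits lay a median of 37 bp apart, with quartiles of 15 and 70 bp, and 86.5% of the summits were within 100 bp of each other (95% Wilson interval 85.5% to 87.5%). The shorter peak was covered in full in the median pair, and 96.04% of pairs overlapped by at least 50% of the shorter peak. Fibroblast and HD3 peaks thus met mostly at the same point and seldom only at their edges. Only 55 fibroblast peaks lay over more than 1 HD3 peak, 4 at most, and 51 HD3 peaks lay over 2 fibroblast peaks.

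Just inside the threshold were 26 pairs that overlapped by under 10 bp. Their median width was 115 bp on the fibroblast side and 97 bp on the HD3 side, and their median percentiles of fold enrichment were 41.2 and 19.7. Just outside it were 8 fibroblast peaks, of median width 121.5 bp and median percentile 19.2, and 8 HD3 peaks, of median width 116 bp and median percentile 21.4, that missed the other list by under 10 bp. A percentile here ranks a peak within its own list, with 100 for the highest fold enrichment. Few peaks in either list were near misses of this kind.

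Shared sites made up 28.01% of the fibroblast list (95% Wilson interval 27.4% to 28.7%) and 42.2% of the HD3 list (41.3% to 43.1%). Since the counts of shared peaks were almost equal from both sides, this gap is that between the lengths of the lists, 17681 and 11763 peaks. With the fibroblast list shortened to 11763 peaks the shares were 33.2% and 33.5%. When only peaks with −log10 q ≥ 10 were kept, 5918 fibroblast and 6883 HD3 peaks remained. Of these, 33.3% and 28.9% were shared, so the order was reversed along with that of the list lengths. Neither cell type could therefore be described as the one whose sites recur more.

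Peaks without a partner were usually many kb from the nearest peak of the other list. The nearest HD3 peak lay a median of 37.6 kb from a fibroblast peak without HD3, and the nearest fibroblast peak a median of 17.4 kb from an HD3 peak without fibroblasts. A distance of at most 1 kb was found for 6.48% of the first (6.07% to 6.92%) and 10.6% of the second (9.92% to 11.4%). Neighbouring peaks of the same list lay a median of 36.4 kb apart in HD3 cells and 22.1 kb apart in fibroblasts. The distances therefore cannot be read apart from the density of the list searched. In windows of 1 Mb, with medians of 14 fibroblast and 10 HD3 peaks, counts had a Spearman correlation of 0.54 between the lists, and counts of peaks that were not shared one of 0.19. These windows share the sequence they lie in, so the correlations are descriptions.

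Strong sites were more often shared, in both cell types. Among fibroblast peaks, 53.99% of the strongest 10% by fold enrichment had an HD3 peak (51.7% to 56.3%), against 6.96% of the weakest 10% (5.86% to 8.24%). For HD3 peaks these shares were 62.8% (59.99% to 65.5%) and 23.4% (21.1% to 25.9%). Each step up by 10% of either list raised the share. Ordered by −log10 p, the strongest and weakest 10% were shared in 48.5% and 16.6% in fibroblasts and in 68.4% and 23.1% in HD3 cells, so the weak end of the fibroblast list was less set apart. The median percentile of fold enrichment was 68.9 for shared fibroblast peaks and 42.9 for fibroblast peaks without HD3. It was 62.3 for shared HD3 peaks and 40.9 for HD3 peaks without fibroblasts.

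**Figure D1:**
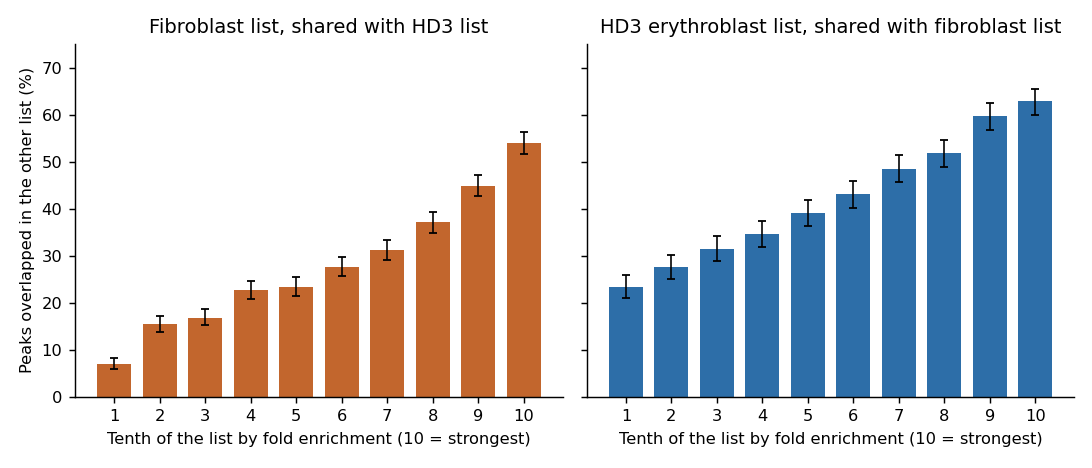
Share of peaks (%, y axis) with a peak in the other list, for 10 equal parts of the fibroblast list (left) and of the HD3 erythroblast list (right) ordered by fold enrichment (x axis, 10 is the strongest). Bars are shares and lines are 95% Wilson intervals; the share climbs from 6.96% to 53.99% along the fibroblast list and from 23.4% to 62.8% along the HD3 list.

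The very top of the lists departed from this climb on the fibroblast side. Of the 10 strongest fibroblast peaks 8 were shared, of the 100 strongest 41 (31.9% to 50.8%) and of the 1000 strongest 547. Of the 10 strongest HD3 peaks all 10 were shared, of the 100 strongest 76 (66.8% to 83.3%) and of the 1000 strongest 629. Among the 100 strongest fibroblast peaks 59 lay in clusters of 5 or more peaks, described below, against 6 of the 100 strongest HD3 peaks. With peaks in clusters set aside, 66.9% of the strongest 10%, 31.1% of the middle 80% and 15.3% of the weakest 10% of fibroblast peaks were shared. The adult red blood cell list had a peak at 92 of those 100 fibroblast peaks, against 30.7% of the whole fibroblast list, and at 50 of those 100 HD3 peaks, against 43.1% of the whole HD3 list.

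Within the one-to-one pairs the 2 cell types ranked the same sites only loosely alike. Spearman's rho between the fold enrichments was 0.35 over the 4797 pairs, as a description across sites. The percentiles lay within 10 points of each other in 29.8% of pairs (28.5% to 31.1%). In 316 pairs both peaks were in the top 10% of their lists, out of 929 pairs with such a fibroblast peak and 718 with such an HD3 peak. A gap of over 50 points was found in 400 pairs with the higher percentile in fibroblasts (8.34%) and in 204 pairs with the higher percentile in HD3 (4.25%). Most pairs with a top 10% peak in one list thus had a partner below the top 10% of the other, but gaps of over 50 points were a minority.

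The 5 pairs below stood highest in both lists at once. The first, on chromosome 31, ran from 3132688 to 3132938 in fibroblasts, with a fold enrichment of 44.4 and rank 4, and from 3132689 to 3132945 in HD3 cells, with 53.2 and rank 1. On chromosome 2, a fibroblast peak from 65121386 to 65121554 had 41.8 and rank 6, and its HD3 partner from 65121464 to 65121555 had 39.3 and rank 7. Near the start of chromosome 33, the fibroblast peak from 77095 to 77571 had 37.7 and rank 7, and the HD3 peak from 77278 to 77518 had 45.5 and rank 3. These 3 pairs had their summits 6, 2 and 16 bp apart. The next was chrW:6812500-6812930 in fibroblasts (35.8, rank 8) and chrW:6812491-6812921 in HD3 cells (37.1, rank 8), and the last chr1:175202311-175202488 in fibroblasts (34.5, rank 10) and chr1:175202359-175202479 in HD3 cells (45.0, rank 4), where the summits fell on the same base. Every one of the 5 sites also had a peak in the embryonic and in the adult red blood cell list.

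Rank differed most at a few sites. All 3 pairs with the largest excess of the HD3 percentile were on chromosome 16, the microchromosome that carries the chicken major histocompatibility complex. One of them, from 1803132 to 1803793 in fibroblasts, had percentile 9.35 there with a fold enrichment of 3.43, whereas its HD3 partner from 1803507 to 1803638 had percentile 99.7 with 28.4. The others had percentiles of 0.158 in fibroblasts and 91.5 in HD3 (1833232 to 1833408 in fibroblasts) and of 4.76 in fibroblasts and 94.97 in HD3 (524731 to 525111 in fibroblasts). These fibroblast peaks were low in fold enrichment while their −log10 q was 86.2, 20.8 and 36.3 in the same order, and those on the first 2 sites stood in a chain of 45 fibroblast peaks. The 3 pairs with the largest excess of the fibroblast percentile were on chromosome 22 (143802 to 144319 in fibroblasts, percentile 99.1, against 5.29 in HD3), on chromosome 3 (5779211 to 5780305, 99.1 against 5.29) and on chromosome 1 (112372185 to 112372390, 96.5 against 3.31). In the pair on chromosome 3 the fibroblast peak was 1095 bp wide and the summits were 648 bp apart, so the HD3 peak lay under its flank.

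Shared peaks were wider than the others, by nearly the same factor in each list. Shared fibroblast peaks were 178 bp wide in the median (interval of the median 174 to 181 bp) and fibroblast peaks without HD3 one of 132 bp (130 to 133 bp), a ratio of 1.35. Shared HD3 peaks had a median of 205 bp (201 to 208 bp) and HD3 peaks without fibroblasts one of 151 bp (149 to 153 bp), a ratio of 1.36. With equal windows of 100 bp to each side of the summit in place of the peaks, 27.5% of fibroblast and 41.4% of HD3 peaks were shared. How far the width of a peak by itself raises its chance of an overlap was not tested further. Shared peaks also held more of the accessible bases than of the peaks, 34.5% in fibroblasts and 49.5% in HD3 cells.

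**Figure D2:**
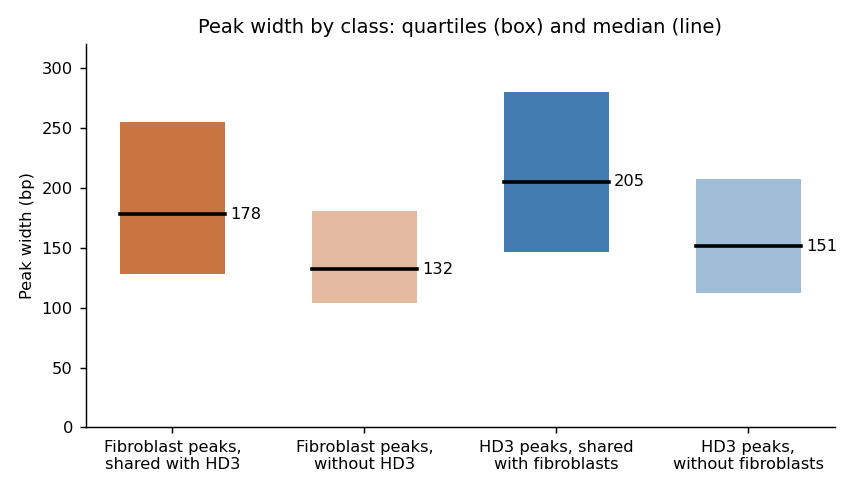
Peak width (bp, y axis) of the 4 classes: fibroblast peaks shared with HD3 and without HD3, and HD3 peaks shared with fibroblasts and without them. Boxes run from the lower to the upper quartile and black lines are medians, 178 and 132 bp in fibroblasts and 205 and 151 bp in HD3 cells.

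Wider peaks were more often shared in both the weaker and the stronger 50% of each list. Such a split leaves strength free to vary within each 50%, so separate contributions of width and strength were not tested. In the weaker 50% of the fibroblast list by fold enrichment, 15.3% of the narrower and 20.8% of the wider peaks were shared. In its stronger 50% the shares were 24.9% and 45.9%. The HD3 list gave 27.9% and 39.9% in the weaker and 35.8% and 59.8% in the stronger 50% of its peaks. At the same site the HD3 peak was the wider one in 61.98% of one-to-one pairs (60.6% to 63.3%), with a median ratio of 0.889 of the fibroblast to the HD3 width. Over the whole lists the median was 141 bp in fibroblasts and 171 bp in HD3 cells. The smallest width ran the other way, 83 bp in fibroblasts, at 172 peaks, and 69 bp in HD3 cells, at 46 peaks.

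Both lists spread over the same 34 chromosomes, but in unequal proportions. As a share of its list, the fibroblast list was lower than the HD3 list on 26 chromosomes and higher on the rest. On 5 chromosomes the fibroblast share was more than 2 times the HD3 share: Z with a ratio of 3.92, 33 with 3.28, 31 with 3.26, 27 with 2.80 and 16 with 2.08. Together they held 3441 fibroblast peaks (19.5% of the list) and 667 HD3 peaks (5.67%). At the other end, chromosome 32 had 25 fibroblast peaks and 43 HD3 peaks, a ratio of 0.387. Chromosome W had 27 and 37, a ratio of 0.485, and chromosome 11 had 294 and 305, a ratio of 0.641.

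**Figure D3:**
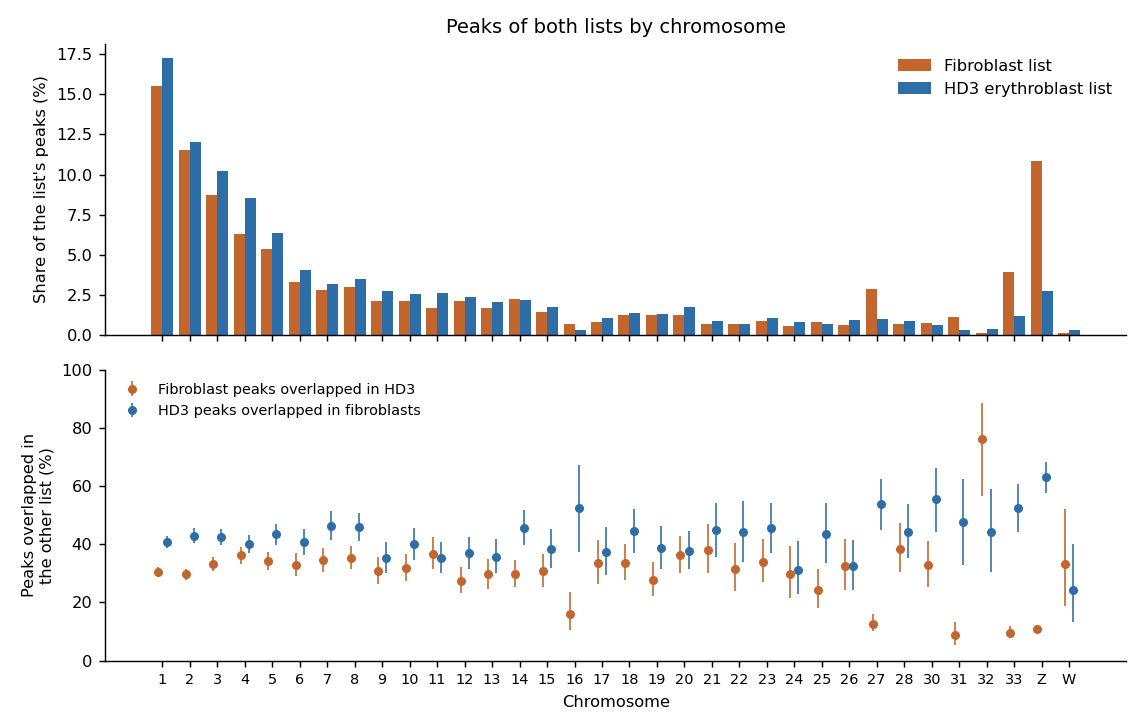
Upper panel: share of each list's peaks (%, y axis) on each chromosome (x axis), fibroblast list left of the HD3 erythroblast list. Lower panel: share of those peaks with a peak in the other list (%), with 95% Wilson intervals as lines; the fibroblast points drop to 10.8% on Z, 9.64% on 33, 8.67% on 31, 12.8% on 27 and to 20 of 125 peaks on 16, while the HD3 points on those chromosomes do not drop.

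The 5 chromosomes with the highest ratio of fibroblast to HD3 share were those where fibroblast peaks were seldom shared. They were chosen by that ratio, and most overlapping pairs were one-to-one, so the low share was partly set by the choice. Chromosome Z, for example, had 325 HD3 peaks for 1916 fibroblast peaks. On chromosome Z 10.8% of fibroblast peaks had an HD3 peak (9.44% to 12.2%), on chromosome 33 9.64%, on chromosome 31 8.67%, on chromosome 27 12.8%, and on chromosome 16 20 of 125 peaks had one. On the other chromosomes with at least 50 fibroblast peaks, 27 in number, the share ran from 24.2% to 38.4%. The HD3 peaks showed no such drop: on chromosome Z 63.1% of them were shared (57.7% to 68.1%), the highest of the 30 chromosomes with at least 50 HD3 peaks. On chromosomes 27 and 33 the HD3 shares were 53.7% (44.9% to 62.4%) and 52.5% (44.3% to 60.5%). Most HD3 sites on chromosome Z, and many on chromosomes 27 and 33, were thus open in fibroblasts as well. They lay among many fibroblast sites without an HD3 peak. More fibroblast peaks also give more chances of an overlap, so the choice of chromosomes may have raised these HD3 shares, which was not tested. Along chromosome Z the HD3 share did not rise with fibroblast density. It was 65.8% from 0 to 25 Mb, 75% from 25 to 30 Mb, 63.1% from 30 to 73 Mb and 48.6% beyond. Fibroblast peaks there numbered 13.2, 18, 10.5 and 109.8 per Mb in the same order.

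HD3 peaks were sparse along the whole of chromosome Z, at 3.94 per Mb against 10.5 on chromosomes 1 to 5. Fibroblast peaks had 23.2 per Mb on Z and 13.8 on chromosomes 1 to 5, and that surplus lay mostly beyond 73 Mb. The sex of the cultured cells is not given, and its part in these densities was not tested. Chromosome Z also differed by region. From 0 to 25 Mb there were 329 fibroblast and 114 HD3 peaks, 13.2 and 4.56 per Mb, from 25 to 30 Mb 90 and 16, and from 30 to 73 Mb 451 and 160, 10.5 and 3.72 per Mb. Beyond 73 Mb there were 1046 fibroblast and 35 HD3 peaks, 109.8 and 3.67 per Mb. The same stretch had 144 embryonic and 210 adult red blood cell peaks. Only 17 of the 1046 fibroblast peaks were shared with HD3 cells (1.63%), whereas 76 had an embryonic and 133 an adult red blood cell peak. Their median fold enrichment was 3.28, at percentile 7.23 of the list, against 5.10 from 0 to 25 Mb, while the median −log10 q was 7.11 against 7.79. Their density was high and their enrichment low. The chicken Z is known to carry a long block of tandemly repeated genes near its far end.

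Away from chromosome Z, both lists had more peaks per Mb on the small chromosomes than on the large ones. In fibroblasts most of that gap lay in clusters, and in HD3 cells most of it lay outside them. Chromosomes 11 to 33 had 24.6 fibroblast and 15.4 HD3 peaks per Mb, and chromosomes 1 to 5 had 13.8 and 10.5. When peaks in clusters were set aside, chromosomes 11 to 33 had 15.2 fibroblast and 14.5 HD3 peaks per Mb, and chromosomes 1 to 5 had 12.6 and 10.2. The share of fibroblast peaks that was shared then became much alike, 36.8% on chromosomes 11 to 33 and 33.6% on chromosomes 1 to 5, but 20.98% on Z. The last 1 Mb at either end of each chromosome, 6.34% of the length covered, held 13.7% of fibroblast peaks (13.2% to 14.2%) and 9.53% of HD3 peaks (9.01% to 10.1%). Ends of this fixed length make up more of the small chromosomes, which had more peaks per Mb. End position was therefore not told apart from chromosome size. Fibroblast peaks near these ends lay in clusters in 51.7% and were shared in 20.9%, and HD3 peaks there lay in clusters in 8.65% and were shared in 46.6%.

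Fibroblast peaks stood in dense clusters far more often than HD3 peaks. Peaks were chained together where no more than 12500 bp lay between neighbours, and a chain of at least 5 peaks was taken as a cluster. By this definition 22.03% of fibroblast peaks (21.4% to 22.6%) and 3.13% of HD3 peaks (2.83% to 3.46%) were in clusters. There were 349 clusters in fibroblasts, 43 of them with 20 peaks or more and the largest with 53. HD3 cells had 60 clusters, none with 20 peaks and the largest with 15. The fibroblast share was 18.3% with the list shortened to the length of the HD3 list, and with weaker peaks removed (−log10 q under 10) the shares were 15.95% in fibroblasts and 0.93% in HD3 cells. With gaps of up to 25 kb they were 30.4% and 14.3%. Isolated peaks, with no neighbour within 12500 bp, made up 43.3% of the fibroblast and 56.2% of the HD3 list.

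**Figure D4:**
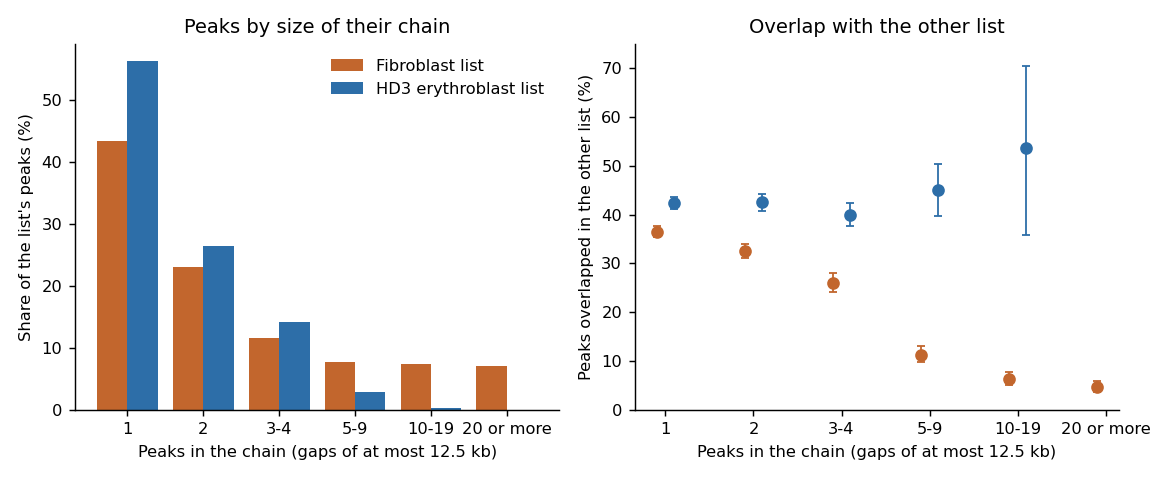
Left: share of each list's peaks (%, y axis) by the number of peaks in their chain (x axis), fibroblasts left of HD3 erythroblasts. Right: share of those peaks with a peak in the other list (%), with 95% Wilson intervals; fibroblast points fall from 36.5% for isolated peaks to 4.64% in chains of 20 or more, and HD3 points lie between 39.96% and 53.6%.

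Fibroblast peaks in clusters were seldom shared, and HD3 peaks in clusters were shared about as often as others. Of fibroblast peaks in clusters 7.50% had an HD3 peak (6.71% to 8.37%), against 33.8% of those outside (33.02% to 34.6%). The share was lower the longer the chain, with 36.5% for isolated peaks, 32.6% in pairs, 26.1% in chains of 3 or 4, 11.3% in chains of 5 to 9, 6.25% in chains of 10 to 19 and 4.64% in longer ones. Chains were formed from fibroblast peaks and most overlapping pairs were one-to-one, so this fall was partly set by the choice. Per Mb, shared peaks were not rarer in clusters. Their 11.8 Mb held 292 shared fibroblast peaks, and 4661 lay outside, where chromosomes 1 to 5 alone cover about 609 Mb with their clusters. HD3 peaks were shared in 45.7% inside clusters (40.6% to 50.8%) and in 42.1% outside (41.2% to 42.97%). No HD3 peak lay within the span of 203 of the 349 fibroblast clusters, which held 2236 fibroblast peaks. Clusters are short, however, 349 within 11.8 Mb, and neighbouring HD3 peaks lay a median of 36.4 kb apart. Many stretches of such length hold no HD3 peak anywhere, and an excess over that share was not tested. No fibroblast peak lay within 2 of the 60 HD3 clusters, which held 12 HD3 peaks.

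The peaks inside fibroblast clusters were on the whole low in fold enrichment, at a median percentile of 27.9 against 54.3 outside, yet 12.3% of them reached the top 10% of the list. Their median −log10 q was 8.8, against 7.53 outside. In HD3 cells the median percentile was 40.5 inside and 50.3 outside, and the median −log10 q 11.7 and 11.9. Of all fibroblast peaks in clusters, 977 lay on chromosome Z, 518 on chromosome 33 and 360 on chromosome 27. HD3 cells had no cluster on chromosome Z, 23 clustered peaks on chromosome 33 and 13 on chromosome 27.

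The 5 largest fibroblast clusters lay on 5 chromosomes. On chromosome 27, from 629035 to 730427, 53 fibroblast peaks stood within 101 kb with no HD3 peak among them, and 18 of them had an adult but none an embryonic red blood cell peak. On chromosome 8, from 11301543 to 11431703, there were 52 fibroblast and 6 HD3 peaks, and 29 of the fibroblast peaks were found in adult red blood cells. On chromosome 14, from 101225 to 187322, there were 51 fibroblast and 6 HD3 peaks, and 44 of the 51 were found in adult red blood cells. HD3 peaks were few only beside the fibroblast peaks of these clusters. The 6 on chromosome 8 lay within 130 kb and the 6 on chromosome 14 within 86.1 kb. Neighbouring HD3 peaks lay a median of 36.4 kb apart over the whole list, so HD3 peaks were not sparse in these 2 clusters. Over all fibroblast peaks in clusters 38.4% had an adult peak, a share that the cluster on chromosome 27 did not reach and the other two passed.

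In the remaining pair of clusters, as in that on chromosome 27, no HD3 peak was found. On chromosome 2, from 142707747 to 142815023, there were 50 fibroblast peaks with a median percentile of 71.1, of which 5 were also embryonic and 35 also adult red blood cell peaks. On chromosome Z, from 77322537 to 77543588, there were 48 fibroblast peaks with a median percentile of 4.74, of which 1 was also an embryonic and 5 were also adult red blood cell peaks. The best-ranked peak of the cluster on chromosome 2 had rank 147 and that of the cluster on chromosome Z rank 5749. Clusters that look alike by the number of peaks therefore held peaks of very different strength.

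HD3 peak numbers missing from such stretches were few beside the fibroblast peaks there. The running numbers in the peak names rise along every chromosome in both lists, so numbers missing between 2 neighbouring HD3 peaks count peaks that were numbered there and not kept. Peaks or reads removed before numbering leave no such trace. On chromosome 33, the interval from 118342 to 2875610 held no HD3 peak, 1 missing HD3 number and 452 fibroblast peaks. On chromosome Z, the interval from 75508991 to 77694528 held 12 missing HD3 numbers and 372 fibroblast peaks, and that from 74498512 to 75508920 held 2 and 176. On chromosome 27, from 566337 to 1133537, there were 1 missing number and 147 fibroblast peaks. Over all 135 intervals between HD3 peaks that held at least 10 fibroblast peaks, 3567 in total, 285 HD3 numbers were missing, or 4.53 per Mb. The rate was 5.78 per Mb in intervals with 4 to 9 fibroblast peaks and 8.45 per Mb in those with none. Missing numbers were thus less dense per Mb in the first intervals, but not absent. Those 135 intervals covered 62.8 Mb, and the 7077 intervals without a fibroblast peak 309 Mb, so the first were far longer. Long intervals without an HD3 peak are poor in HD3 peaks by choice, so part of the lower rate may be built in. Per interval the order was reversed, with 285 missing numbers in 135 intervals and 2607 in 7077. Why HD3 peaks were few in these intervals was not tested.

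The HD3 clusters were smaller and mixed. The largest, on chromosome 16 from 1799103 to 1842946, had 15 HD3 peaks, of which 11 were shared and all 15 also found in embryonic red blood cells, inside a stretch with 38 fibroblast peaks. Its HD3 peaks had a median percentile of 93.9 and included rank 2 of the list. On chromosome 32, from 510213 to 575009, there were 13 HD3 and 4 fibroblast peaks. On chromosome 23, from 86222 to 111041, all 9 HD3 peaks were shared and all 9 were found in both red blood cell lists. The next lay on chromosome 11 from 19057149 to 19095581, with 8 HD3 peaks of which 1 was shared, and on chromosome 24 from 58181 to 89400, with 8 HD3 peaks of which 3 were shared and all 8 were found in embryonic red blood cells.

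Both HD3 clusters without any fibroblast peak held fewer peaks than each of the 5 largest HD3 clusters. One lay on chromosome 26 from 5474485 to 5518271 with 7 HD3 peaks, of which 3 were also embryonic and 3 also adult red blood cell peaks. The other lay on chromosome 5 from 43768942 to 43796867 with 5 HD3 peaks, of which 3 were also embryonic and 2 also adult red blood cell peaks. Among 1 Mb windows, chosen after their values were seen, the largest excess of HD3 peaks was on chromosome 11 from 19 to 20 Mb, with 27 fibroblast and 50 HD3 peaks. Another was on chromosome 5 from 43 to 44 Mb, with 13 and 30. The largest excess of fibroblast peaks was on chromosome 27 from 0 to 1 Mb, with 219 fibroblast and 8 HD3 peaks. HD3 peaks outnumbered fibroblast peaks in 296 windows and fibroblast peaks outnumbered HD3 peaks in 711.

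The red blood cell lists had no part in forming the classes and overlapped them unequally. Shared sites were mostly open in red blood cells as well: of shared fibroblast peaks 79.7% had an embryonic (78.5% to 80.8%) and 65.2% an adult peak (63.9% to 66.5%), and of shared HD3 peaks 79.9% and 65.3%. Fibroblast peaks without HD3 had an embryonic peak in 9.57% (9.07% to 10.1%) and an adult peak in 17.3% (16.7% to 17.98%). HD3 peaks without fibroblasts had an embryonic peak in 42.9% (41.7% to 44.1%) and an adult peak in 26.9% (25.8% to 27.9%). Neither red blood cell list had a peak at 79.7% of fibroblast peaks without HD3 and at 54.9% of HD3 peaks without fibroblasts. Over the whole lists, neither had one at 62.7% of fibroblast and 39.7% of HD3 peaks. An embryonic peak was found at 29.2% of all fibroblast and 58.5% of all HD3 peaks, and an adult peak at 30.7% and 43.1%. The order of embryonic and adult cells was thus opposite in the 2 unshared classes. It was also opposite in the whole lists, though by little in fibroblasts, and the whole lists include the unshared peaks. Shared peaks had an embryonic peak more often than an adult one in both cell types. The excess of adult overlap was thus found in fibroblast peaks without HD3 and not in shared fibroblast peaks. In HD3 cells the order was the same in shared and unshared peaks.

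The surplus of adult over embryonic overlap among fibroblast peaks lay largely in clusters. Of the 3603 fibroblast peaks in clusters without HD3, 34.8% had an adult (33.3% to 36.4%) and 11.5% an embryonic peak (10.5% to 12.6%). Outside clusters the shares were 10.4% (9.79% to 11.04%) and 8.81% (8.25% to 9.41%). Overlap with the adult list but not the embryonic one was found for 26.4% of those in clusters and 4.50% of those outside. In HD3 peaks without fibroblasts it was found for 2.16%, while 18.2% overlapped the embryonic list only. Over all HD3 peaks these shares were 1.76% and 17.2%.

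Among unshared sites, the strongest were those most often open in adult red blood cells in the fibroblast list, and those least often so in the HD3 list. In the strongest 10% of the fibroblast list, 47.3% of the 814 peaks without HD3 had an adult red blood cell peak (43.9% to 50.7%), against 14.1% of the 10269 in the middle 80% (13.5% to 14.8%) and 22.4% of the 1645 in the weakest 10% (20.4% to 24.4%). Outside clusters these shares were 27.6% of 427 and 13.3% of 460. In the strongest 10% of the HD3 list, 10.3% of the 438 peaks without fibroblasts had an adult peak (7.77% to 13.5%), against 29.6% of the 901 in the weakest 10% (26.7% to 32.7%). For embryonic red blood cells the HD3 shares were 25.1% (21.3% to 29.4%) and 48.4% (45.1% to 51.7%). With −log10 p as the measure of strength, an adult peak was found at 59.1% of the strongest and 9.08% of the weakest 10% of fibroblast peaks without HD3, so the rise at the weak end by fold enrichment was absent. HD3 peaks without fibroblasts then had an adult peak in 12.4% and 26.0% and an embryonic one in 27.4% and 44.8%. Shared HD3 peaks showed no such fall. By fold enrichment, an embryonic peak was found at 79.4% of those in the strongest 10%, 80.7% in the middle 80% and 70.2% in the weakest 10%.

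**Figure D5:**
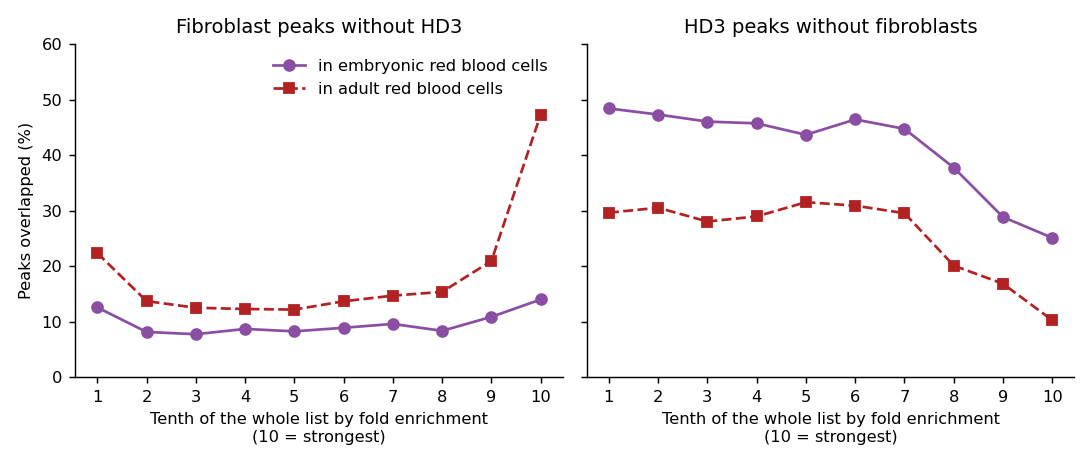
Share of unshared peaks (%, y axis) with a peak in embryonic (circles) or adult (squares) red blood cells, by the peak's place in 10 equal parts of its whole list ordered by fold enrichment (x axis, 10 is the strongest). Fibroblast peaks without HD3 (left) reach 47.3% in adult cells at the strong end; HD3 peaks without fibroblasts (right) drop to 25.1% in embryonic and 10.3% in adult cells there.

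The strongest sites of one cell type without the other showed the same contrast. In fibroblasts they were chr20:516505-516599 with a fold enrichment of 43.5, chr31:74641-74761 with 35.4, chr31:3956143-3956240 with 34.3, chr8:24657635-24657781 with 31.2 and chr33:37700-37864 with 30.9. All 5 had an adult red blood cell peak, 1 had an embryonic one, and 2 lay in clusters, of 20 and 21 peaks. The HD3 sites were chr1:142908112-142908431 with 32.5, chr4:57877335-57877594 with 31.6, chr4:19605257-19605643 with 30.02, chr3:102703458-102703704 with 29.95 and chr2:1008754-1008984 with 29.8. None of these 5 had an adult peak, 1 had an embryonic one, and none lay in a cluster. The fibroblast sites were 95 to 165 bp wide and the HD3 sites 231 to 387 bp.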

How the data were processed

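Each cell type has 1 list in the narrowPeak layout, here of 17681 fibroblast, 11763 HD3, 12558 embryonic and 11395 adult red blood cell peaks. Per the submitters' processing notes, Bowtie2 2.3.5, SAMtools 1.9, MACS2 2.1.2 and the build GRCg6a were used; how the 2 samples of a cell type entered its list, and the filters applied, are not given in the sources used here. Names of fibroblast peaks start with Fb1 and those of HD3 peaks with HD32; whether the last digit is a sample number is not stated, so a list may hold the peaks of 1 sample or of both. The deposited fold enrichment (a ratio to the caller's background), −log10 p and −log10 q are the authors' values for single peaks and rank or filter peaks within a list only. The deposited display score equalled, in 100% of peaks, 10 times the −log10 q cut to a whole number. No peaks of 1 list overlapped each other. Depth is unknown, because the files hold no counts. Positions were written from 1. Chromosome length was taken as the last peak end in any list. Shares have 95% Wilson intervals and medians 95% binomial order-statistic intervals. Peaks were named by rule: the 5 strongest unshared peaks of each list, the 5 one-to-one pairs with the best worse rank, 3 pairs with the largest rank difference each way, the 5 largest clusters of each list and the 3 largest without the other list (HD3 had only 2). The classes, rules and alternatives were chosen with earlier results of these data known. Gene positions were at hand for GRCg7b only, so the planned nearest genes, marker promoters and motif shares were left out. The overlap code was tested on simulated data and gave the same counts as bedtools 2.31.1. Scripts ran under Python 3.11.15 with SciPy 1.17.1, pandas 2.3.3, matplotlib 3.10.9 and NumPy 2.4.6.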

Additional observations from a re-analysis of the deposited data

Results flagged for a closer look

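The running numbers in the peak names, which no comparison of overlap used, carry a signal of their own. Of the numbers up to the highest, 6.70% were missing from the fibroblast list (1269 of 18950) and 40.3% from the HD3 list (7948 of 19711). Of the missing HD3 numbers, 7588 fell between kept peaks of the same chromosome. Where in the processing they were lost is not stated, and its part in the overlap shares was not tested.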

How the results depend on the processing

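No paired analysis was possible because 1 list stands for each cell type, and no sample could be left out. Of 45 alternative values for 12 results, 17 stayed inside the interval of the result and 28 moved out of it. Single shares have no direction to reverse, but the order of fibroblasts and HD3 cells turned round for the shared share with −log10 q ≥ 10 and for chromosomes 11 to 33 without dense windows. With −log10 q ≥ 10 the order of the list lengths turned round too, to 5918 fibroblast and 6883 HD3 peaks. Causes were not tested, except that shortened lists hold fewer peaks by construction. Both width ratios stayed above 1 in every alternative run, and shared peaks kept a median percentile above 60. With a −log10 q of at least 10, 33.3% of fibroblast and 28.9% of HD3 peaks were shared, the fibroblast width ratio was 1.40, 15.95% of fibroblast and 0.93% of HD3 peaks lay in clusters, 30.8% and 24.99% on chromosomes 11 to 33, and 9.29% and 2.35% on chromosome Z. In lists of equal length, 33.2% of fibroblast and 33.5% of HD3 peaks were shared, and 18.3% of fibroblast peaks lay in clusters. An overlap of 50% of the shorter peak gave 26.8% and 40.4% shared. Without the 209 windows of 100 kb with at least 10 peaks in either list, 33.4% of fibroblast peaks were shared, their median percentile was 66.9, 21.95% of fibroblast and 25.3% of HD3 peaks lay on chromosomes 11 to 33, and 6.28% of fibroblast peaks on chromosome Z. Those windows were picked for their many peaks, which builds in part of that fall. Without chromosome Z, 30.1% of fibroblast peaks were shared and 18.5% lay in clusters. Ranked by −log10 p, shared fibroblast peaks had a median percentile of 65.9. Clusters joined at 5 kb held 10.9% of fibroblast and 0.221% of HD3 peaks, and at 25 kb 30.4% and 14.3%. By covered bases, chromosomes 11 to 33 held 29.3% and chromosome Z 9.55% of the fibroblast list.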
